A study of Mus musculus with 12 samples.

Results

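The genes described here are 10 genes of the intestinal brush border: the disaccharidases Sis, Lct, Treh and Mgam, the peptidases Anpep, Dpp4, Mep1a and Mep1b, the phosphatase Alpi, and Vil1. They were taken as a named list and found by Ensembl identifier, without its version, among the 48526 gene rows of the count tables. The series measured RNA of small intestinal epithelium of female mice aged 3 months in 12 libraries, 6 groups of 2. Each of the 4 animals gave 1 input library and 1 pulldown library each for J2 and K1, which are antibodies against double-stranded RNA. In 2 animals, KAT2A/KAT2B DKO was induced with tamoxifen at 100 mg/kg in ethanol and corn oil, injected into the peritoneum on 4 days. The 2 control animals received the same injections of ethanol and corn oil without tamoxifen. Cells were taken 2 days after the injections from the proximal small intestine with EDTA, whereas the library titles name whole intestine epithelial cells. Loss of the genes and exposure to tamoxifen cannot be told apart in this design. The labels name neither the Cre driver nor the floxed alleles, and do not say whether the controls carry them. Kat2a and Kat2b encode lysine acetyltransferases of nuclear coactivator complexes.

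The brush border is the layer of microvilli on the luminal face of enterocytes, the absorptive cells of the villus. Digestive hydrolases are anchored in its membrane and carry out the last steps of the breakdown of sugars, peptides and phosphate esters. Sis encodes sucrase-isomaltase and Mgam maltase-glucoamylase, which cleave sucrose and the products of starch digestion. Lct encodes lactase, which cleaves milk sugar and in mammals is high before weaning. Treh encodes trehalase. Anpep encodes aminopeptidase N, Dpp4 a dipeptidyl peptidase that also inactivates incretin hormones, and Mep1a and Mep1b the subunits of the metalloprotease meprin. Alpi encodes intestinal alkaline phosphatase, which removes phosphate from lipopolysaccharide. Vil1 encodes villin, which bundles the actin core of the microvillus and is not an enzyme, although it was listed with them. Caudal-type factors (Cdx1, Cdx2), HNF1, HNF4 and GATA factors are known regulators of these genes in enterocytes.

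The promoters of 5 members are shown because these members span what the comparisons found: Lct, Sis and Treh were called lower in DKO input, and Mgam and Alpi were not. Each sequence is the 250 bases that end just before the gene's start, on the strand of the gene, taken from RefSeq on GRCm38.p6. RefSeq windows were found for 9 of the 10 members, and Mep1b had none in the table used. Capitals mark matches to 4 motifs searched on both strands: a CDX motif (TTTATG), an HNF1 motif (GTTAAT), an HNF4 motif (CAAAGTCCA) and a GATA motif (GATAA). The windows lie at chr3:72967864-72968113 (minus strand) for Sis, chr1:128328319-128328568 (minus) for Lct, chr9:44672983-44673232 (plus) for Treh, chr6:40628581-40628830 (plus) for Mgam and chr1:87101607-87101856 (minus) for Alpi.
Sis: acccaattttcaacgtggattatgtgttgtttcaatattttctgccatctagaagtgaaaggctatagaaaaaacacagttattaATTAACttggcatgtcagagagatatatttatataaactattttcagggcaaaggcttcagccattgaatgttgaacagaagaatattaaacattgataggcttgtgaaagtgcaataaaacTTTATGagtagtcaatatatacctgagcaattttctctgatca
Lct: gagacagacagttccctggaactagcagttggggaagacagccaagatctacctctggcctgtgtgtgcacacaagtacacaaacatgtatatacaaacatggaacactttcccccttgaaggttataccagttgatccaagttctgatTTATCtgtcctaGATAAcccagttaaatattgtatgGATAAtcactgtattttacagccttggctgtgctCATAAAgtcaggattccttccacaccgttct
Treh: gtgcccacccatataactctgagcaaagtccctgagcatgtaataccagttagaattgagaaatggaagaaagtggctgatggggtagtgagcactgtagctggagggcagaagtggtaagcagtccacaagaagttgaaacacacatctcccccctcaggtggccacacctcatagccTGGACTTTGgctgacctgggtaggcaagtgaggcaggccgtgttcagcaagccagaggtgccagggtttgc
Mgam: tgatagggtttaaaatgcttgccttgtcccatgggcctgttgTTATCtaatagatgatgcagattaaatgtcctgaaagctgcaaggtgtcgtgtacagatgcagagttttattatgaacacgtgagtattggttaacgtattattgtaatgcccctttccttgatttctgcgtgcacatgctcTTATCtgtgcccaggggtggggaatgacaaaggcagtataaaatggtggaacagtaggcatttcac
Alpi: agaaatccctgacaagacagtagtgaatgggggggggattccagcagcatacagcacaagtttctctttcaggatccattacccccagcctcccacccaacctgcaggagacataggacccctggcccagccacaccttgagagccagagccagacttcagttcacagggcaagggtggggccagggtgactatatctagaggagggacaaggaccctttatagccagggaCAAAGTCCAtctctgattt
Among the 9 members with a window, the CDX motif was in Sis, 43 to 38 bases before the start, and in Lct, 31 to 26 bases before it. That motif was in 10.8% of 32851 windows of all genes. Sis also held the HNF1 motif 165 to 160 bases before the start, a motif of 6.43% of windows. The HNF4 motif was in Treh, 71 to 63 bases before the start, and in Alpi, 19 to 11 bases before it, against 0.384% of all windows. The GATA motif, in 22.6% of all windows, occurred 3 times in Lct, 2 times in Mgam, 2 times in Mep1a and 1 time in Dpp4. The Anpep and Vil1 windows held none of the 4 motifs. By GENCODE M21 coordinates, the Anpep window (chr7:79848211-79848460) lies inside the gene (chr7:79821803-79861059, minus strand). The Vil1 and Mep1a windows run a little past the gene's start there, so sequence before those starts was searched only in part, and for Anpep not at all. No 2 of the motif matches overlapped. Treh, which fell in DKO input, and Alpi, which did not pass there, both held the HNF4 motif. Whether any of these motifs goes with the changes in DKO was not tested.

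Input libraries held 10307281 to 11474107 gene counts, control pulldowns 13308021 to 16139531, and DKO pulldowns 2220291 to 5826361. The pulldowns of DKO animal 2 were the shallowest of both antibodies. In the DKO pulldowns, 8.76% to 18.6% of gene counts were mitochondrial, against at most 2.77% in the control pulldowns. The share of listed reads aligned to several places averaged 22.7% in J2 DKO and 36.3% in K1 DKO. As the check of the labels, Kat2a had 222 and 228 counts in control input and 84 and 148 in DKO input, and Kat2b 359 and 343 against 118 and 114. The log2 fold change was -0.88 for Kat2a (SE 0.227, adjusted p 0.0205) and -1.51 for Kat2b (SE 0.165, adjusted p 6.32e-04) in edgeR's quasi-likelihood test, which gave all adjusted p-values here unless another test is named. Reads of both genes remained in every DKO library. Markers of other cell types moved with genotype in input, where 35.9% of all genes were called. Of the stem cell and proliferation markers, 5 of 8 and 7 of 8 were called lower, and their summed levels were 528 to 533 CPM and 391 to 451 CPM in control against 169 to 201 CPM and 118 to 157 CPM in DKO. Tuft cell markers were called higher for 2 of the 5 tested, with summed levels of 43.9 to 48.7 CPM in control and 95.2 to 117 CPM in DKO. Of 8 Paneth cell markers, 1 was called higher and 2 lower, with 3292 to 3762 CPM in control and 1435 to 2781 CPM in DKO. Of 8 goblet cell markers, 3 were called higher, with 10506 to 11653 CPM in control and 10503 to 12665 CPM in DKO. Enteroendocrine markers were called higher for 5 of 8, with summed levels of 199 to 221 CPM in control and 264 to 359 CPM in DKO. Of the 7 leukocyte markers tested, 4 were called lower, from summed levels of 89.9 to 94.1 CPM in control to 56.2 to 61.4 CPM in DKO. Markers of mesenchyme, muscle and endothelium summed to at most 10.96 CPM in input. In the pulldowns they summed to 11.3 to 24.2 CPM in control J2 and 41.3 to 169 CPM in DKO J2, and to 10.4 to 41.7 CPM in control K1 and 94.2 to 187 CPM in DKO K1. Of 4 tested, 0 were called between genotypes in J2 and 2 in K1, both higher in DKO, where 12.2% and 27.1% of all genes were called. The median log2 fold change of these 4 was 2.93 in J2 and 2.53 in K1. The part of these markers in the results on the brush border genes was not tested, and in bulk RNA fewer cells of a type and less RNA per cell cannot be told apart.

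All 10 members were detected in every library and passed the filter on low counts in every fit. In control input they were among the more abundant transcripts of the epithelium. Levels of different genes are compared here as CPM, counts scaled to library size, per kilobase of exon (CPM per kb). Ranks were taken among the 16534 genes that passed the filter on low counts over all 12 libraries and had a known exon length. By this level in control input, Anpep ranked 17, Alpi 36, Vil1 57, Mgam 61, Sis 74, Lct 79, Mep1b 93, Treh 140, Dpp4 370 and Mep1a 1449. Anpep stood at 1826 ± 65.3 CPM per kb (SD, n = 2) and Alpi at 949 ± 83.5. Below them came Vil1 at 533 ± 2.57, Mgam at 521 ± 88.4, Sis at 437 ± 3.84, Lct at 412 ± 95.1 and Mep1b at 335 ± 6.82, and each neighbouring pair of these differed by less than the larger SD of the pair. Next came Treh at 233 ± 25.3, Dpp4 at 95.5 ± 8.16 and Mep1a at 26.2 ± 2.43. The meprin subunits thus differed in level, with Mep1b far above Mep1a in every control input library. In DKO input Lct went from rank 6 to rank 10 of the 10, at 10.1 ± 1.06 CPM per kb, and ranked 3518 among the same 16534 genes.

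The DKO input libraries were compared with control input to ask which members changed in total RNA. Of the 10 members, 3 passed the test and all 3 were lower, all of them disaccharidases: Lct, Sis and Treh. Among all 15088 genes tested, 35.9% were called, 17.1% lower. Of those calls 52.4% were higher, and 42.1% without TMM scaling. The members' share was near this background, so their count alone says little, while the size of the Lct change was near the extreme of all genes. The median log2 fold change of the members was -0.09, against -9.66e-04 for all genes tested.

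Lct (ENSMUSG00000026354.8, chr1:128284756-128328318, minus strand) stood at 2207 and 3068 CPM in control input, from 27736 and 42571 counts. In DKO input it stood at 59.8 and 69.4 CPM, from 717 and 944 counts. Both DKO animals were far below both controls, and the DKO values lay closer together than the control values. Lactase RNA fell by 5.31 on the log2 scale (SE 0.241, adjusted p 5.32e-05), which is 39.7-fold lower. By fold change, Lct ranked 15 from the lowest of the 15088 genes tested.

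Sis (ENSMUSG00000027790.14, chr3:72888557-72967863, minus strand) stood at 3285 and 3245 CPM in control input and at 1335 and 1141 CPM in DKO input. The groups did not overlap, and the 2 control values were nearly equal. Sucrase-isomaltase RNA fell by 1.36 on the log2 scale (SE 0.173, adjusted p 0.00116), 2.57-fold lower. Treh (ENSMUSG00000032098.13, chr9:44673233-44686305, plus strand) stood at 440 and 513 CPM in control and at 273 and 256 CPM in DKO, again without overlap. Trehalase RNA fell by 0.81 on the log2 scale (SE 0.140, adjusted p 0.00413), 1.75-fold lower. Treh shares 2 exon bases with Phldb1 on the opposite strand, and the counts do not use strand. In a fit that pools the spread of all 12 libraries, Sis and Treh did not pass (adjusted p 0.293 and 0.512 in edgeR), while Lct did (adjusted p 0.00118).

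Mgam, the disaccharidase related to Sis, did not pass. It stood at 5080 and 3992 CPM in control and at 6090 and 3794 CPM in DKO, so that the groups overlapped, with a log2 fold change of 0.16 (SE 0.268, adjusted p 0.667). Its sign turned without DKO animal 1, at -0.21, and without control animal 2, at -0.01.

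None of the 4 peptidases, nor Alpi, passed the test in input. Anpep stood at 7741 and 7359 CPM in control and at 12548 and 9195 CPM in DKO. Both DKO values were above both controls, with a log2 fold change of 0.57 (SE 0.239, adjusted p 0.103). Mep1a was also higher in both DKO animals, at 109 and 102 CPM against 84.6 and 96.4 CPM in control (log2 fold change 0.26, SE 0.126, adjusted p 0.143). Mep1b, its partner subunit, lay a little lower in DKO, at 862 and 740 CPM against 892 and 867 CPM (log2 fold change -0.10, SE 0.148, adjusted p 0.646). Dpp4 stood at 564 and 546 CPM in DKO and at 640 and 567 CPM in control, values that barely separated (log2 fold change -0.08, SE 0.139, adjusted p 0.680). Dpp4 shares 232 exon bases with the antisense gene Gm13561, which had 36 counts over all 12 libraries. Alpi overlapped between the groups, at 2287 and 1775 CPM in DKO and 2079 and 2355 CPM in control (log2 fold change -0.09, SE 0.190, adjusted p 0.746). Reads that aligned to several places entered no gene, and how many of them came from Alpi and related alkaline phosphatase genes was not counted.

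Vil1, the structural member, stood at 1900 and 1887 CPM in control input and at 1460 and 1157 CPM in DKO input. The groups did not overlap, yet the log2 fold change of -0.49 (SE 0.174) did not pass, with an adjusted p of 0.0608. Vil1 passed in 6 of 11 alternative analyses and Anpep in 4 of 11. Without TMM scaling both were called, Anpep higher and Vil1 lower, so that 5 of the 10 members passed, where 33.6% of all genes did. The setting without TMM moved the median of all genes to -0.13.

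**Figure D1:**
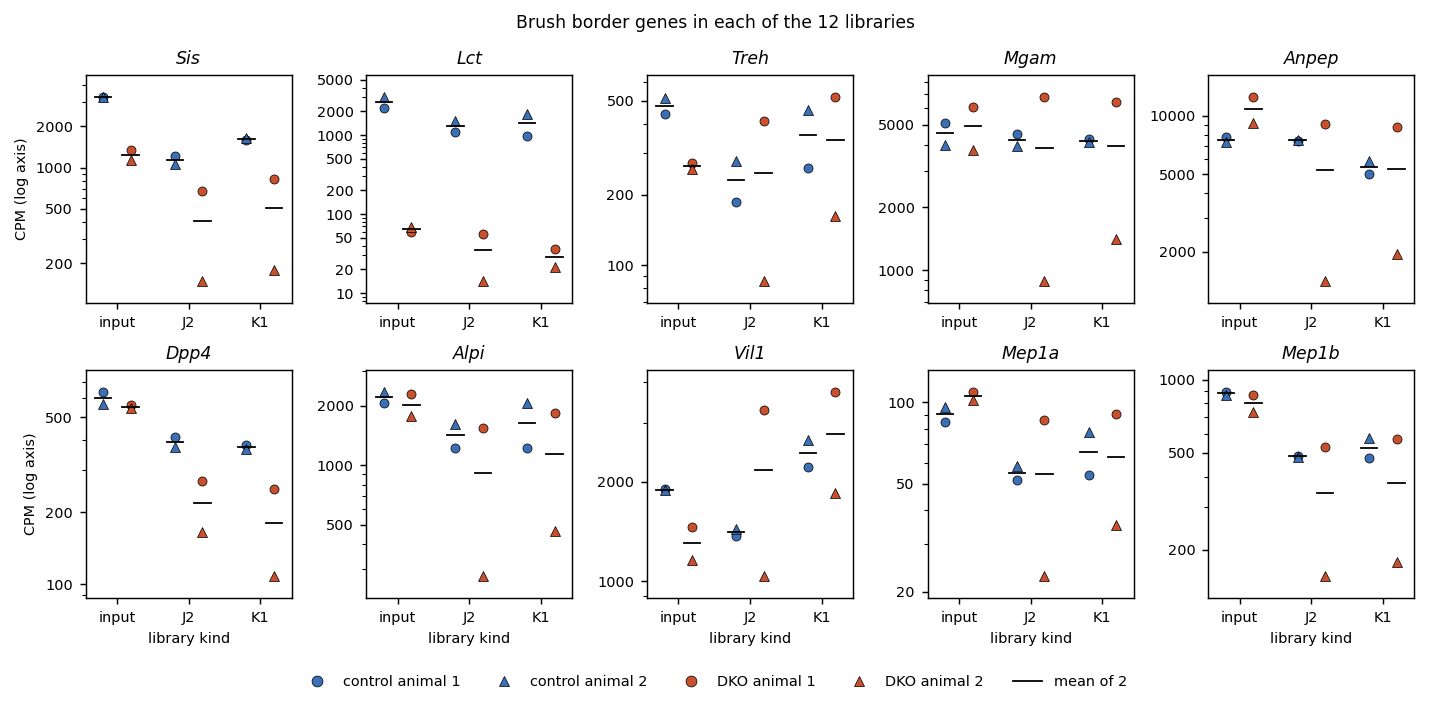
CPM (log axis) of each of the 10 brush border genes in input, J2 and K1 libraries, with circles for animal 1 and triangles for animal 2 of each genotype and a line at the mean of 2. Lct in DKO (14.2 to 69.4 CPM) lies below every control value in all 3 library kinds, and DKO animal 2 is the lowest of the pulldown points for every gene.

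Summed over the 10 members, the level was 24351 and 23951 CPM in control input and 25589 and 18777 CPM in DKO input. The groups overlapped, and an exact two-sided permutation test over the 4 libraries gave p = 1, where the smallest p that 2 against 2 allows is 0.333. Anpep and Mgam gave the most to this sum.

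To compare members without any scaling between libraries, each count was divided by the Mgam count of its library. Mgam was chosen as the divisor after its values were seen, so these ratios are a description and carry no test. The Lct count was 43.4% and 76.9% of the Mgam count in control input, and 0.982% and 1.83% in DKO input. In J2 it was 24.2% and 38.6% for control and 0.823% and 1.60% for DKO. In K1 it was 22.8% and 45.2% for control and 0.560% and 1.54% for DKO. Every DKO library was thus far below every control library.

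The Sis count was 64.7% and 81.3% of the Mgam count in control input and 21.9% and 30.1% in DKO input. In J2 it was 27.1% in both controls and 9.82% and 16.8% in DKO, and in K1 37.6% and 39.4% against 12.8% and 12.7%. Sis therefore stood lower relative to Mgam in DKO in all 3 kinds of library. Treh did not share this: its ratio was 8.65% and 12.9% in control input and 4.48% and 6.75% in DKO input, but the genotypes overlapped in J2 (4.12% and 7.01% in control, 6.01% and 9.69% in DKO) and in K1 (6.10% and 11.1%, 8.08% and 11.5%).

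**Figure D2:**
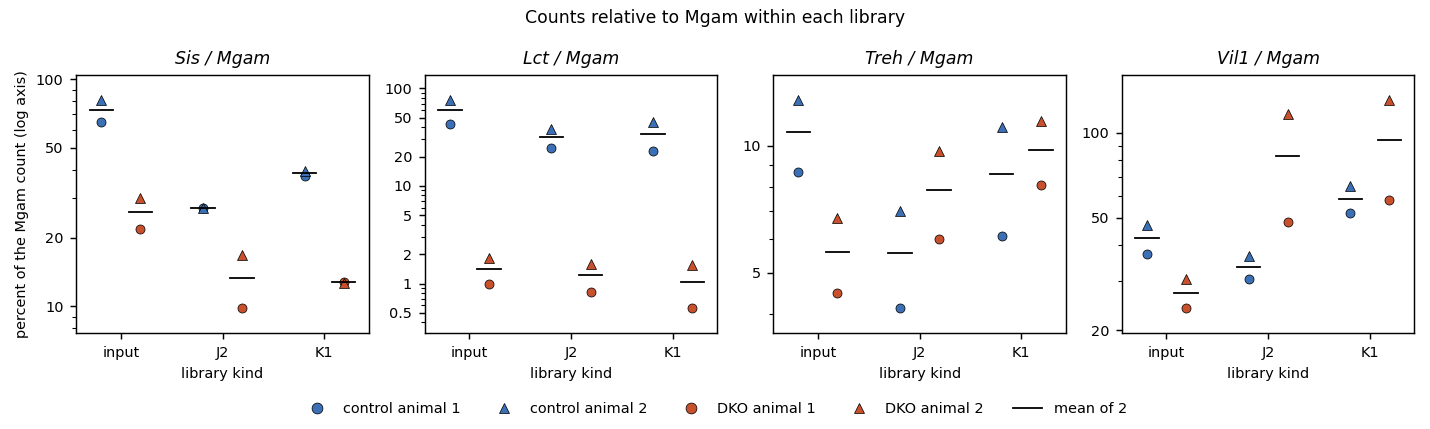
Counts of Sis, Lct, Treh and Vil1 as a percent of the Mgam count of the same library (log axis), by library kind, with circles for animal 1, triangles for animal 2 and a line at the mean of 2. Sis and Lct in DKO lie below control in input, J2 and K1; Vil1 in DKO lies below control in input (24.0% and 30.5% against 37.4% and 47.3%) and, in J2, above it (48.3% and 117% against 30.3% and 36.6%).

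In the pulldowns, Lct was again the member that passed between genotypes, and no other did. In J2 libraries it was 1 of the 10 members called, against 12.2% of all 13181 genes tested (6.16% lower). In K1 libraries it was also 1 of 10, against 27.1% of 12888 genes (13.9% lower). The share of calls that were higher was 49.4% in J2 and 48.6% in K1, and 32.7% and 27.4% without TMM scaling. At an unadjusted p under 0.05, a threshold not counted over all genes here or below, 1 member passed in J2 and 2 in K1. DESeq2 called 1 and 2, where it called 21.9% and 25.1% of all genes.

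Lct stood at 1092 and 1524 CPM in control J2 and at 56.1 and 14.2 CPM in DKO J2, the last from 46 counts. The groups did not overlap, and DKO animal 2 was the lower of its pair. Lct fell by 5.20 on the log2 scale in J2 (SE 0.887, adjusted p 0.0326), 36.8-fold lower. That call was lost without control animal 1 (adjusted p 0.0955) and without control animal 2 (adjusted p 0.0889), with fold changes of -5.46 and -5.00. In K1, Lct stood at 968 and 1871 CPM in control and at 36.1 and 21.7 CPM in DKO. The log2 fold change there was -5.42 (SE 0.515, adjusted p 0.00184), 42.9-fold lower, and passed in all 11 alternatives run.

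Sis and Dpp4 did not overlap between genotypes in either pulldown and did not pass. Overlap was not counted over all genes, and the smallest exact permutation p of 2 against 2 values is 0.333, so separation alone says little. Sis stood at 1219 and 1070 CPM in control J2 and 669 and 149 CPM in DKO J2, with a log2 fold change of -1.48 (SE 0.808, adjusted p 0.244). In K1 it stood at 1600 and 1631 CPM against 829 and 180 CPM (log2 fold change -1.54, SE 0.625, adjusted p 0.105). On a log scale the 2 DKO animals thus differed from each other by more than DKO animal 1 did from either control. Dpp4 stood at 415 and 377 CPM in control J2 against 271 and 165 CPM in DKO (log2 fold change -0.82, SE 0.453, adjusted p 0.249). In K1 it stood at 381 and 370 CPM against 251 and 108 CPM (-0.90, SE 0.385, adjusted p 0.121). Both genes were therefore lower in both DKO animals, but DKO animal 2 set much of the size.

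The other 7 members overlapped between genotypes in both pulldowns, with DKO animal 1 and DKO animal 2 on opposite sides of at least 1 control. Mgam stood at 4504 and 3947 CPM in control J2 and at 6818 and 885 CPM in DKO J2. Anpep stood at 7468 and 7513 CPM in control J2 and at 9129 and 1413 CPM in DKO J2. In K1 the same 2 genes stood at 6454 and 1415 CPM and at 8732 and 1942 CPM in DKO, around control values of 4253 and 4140 CPM for Mgam and 5020 and 5886 CPM for Anpep. Alpi, Treh, Mep1a and Mep1b also had DKO animal 2 lowest of the 4 libraries of each antibody. DKO animal 1 lay above both controls for Treh and Mep1a with both antibodies and for Mep1b in J2. It lay between the controls for Alpi with both antibodies and for Mep1b in K1. Vil1 varied less at its lower end: it stood at 3296 and 1035 CPM in DKO J2 and at 3740 and 1854 CPM in DKO K1, around 1366 and 1443 CPM and 2212 and 2677 CPM in control.

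The number of members called between genotypes in pulldowns therefore depended on which DKO animal was kept. Without DKO animal 1, 9 members were called in J2 and 7 in K1, all lower, where 59% and 38% of all genes were called, 30.8% and 20.4% lower. Without DKO animal 2, 7 were called in J2 and 5 in K1, where 54% and 41.5% of all genes were called. In J2 these were Sis, Lct and Dpp4 lower and Treh, Mgam, Vil1 and Mep1a higher, and in K1 Sis and Lct lower and Mgam, Anpep and Vil1 higher. Sis and Lct were therefore called lower with either DKO animal alone and both antibodies, and Mgam was called in opposite directions by the 2 animals. In J2, 0 were called without control animal 1 and 0 without control animal 2, where 1.33% and 1.68% of all genes were called. A lone DKO library in these fits is assumed to vary like the 2 control libraries. The 10 members together took 1.71% and 1.70% of the gene counts in control J2, 1.54% in DKO animal 1 and 0.506% in DKO animal 2. In K1 they took 1.65% and 1.89% in control, 1.75% in DKO animal 1 and 0.633% in DKO animal 2. In the input libraries DKO animal 2 was closer to the rest, at 2.28% against 2.73% to 2.97%. The summed levels overlapped between genotypes in J2 (18019 and 18305 CPM, 22818 and 4200 CPM) and in K1 (16443 and 19757 CPM, 23057 and 6360 CPM), with an exact permutation p of 1 for each. Without DKO animal 2 the log2 ratio of the summed levels turned from -0.43 to 0.34 in J2 and from -0.30 to 0.35 in K1. In DKO animal 2, 45.9% of the listed reads of the J2 library and 61.2% of those of the K1 library were not assigned to a gene, the highest shares of their antibodies; the part of this in the values was not tested.

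**Figure D3:**
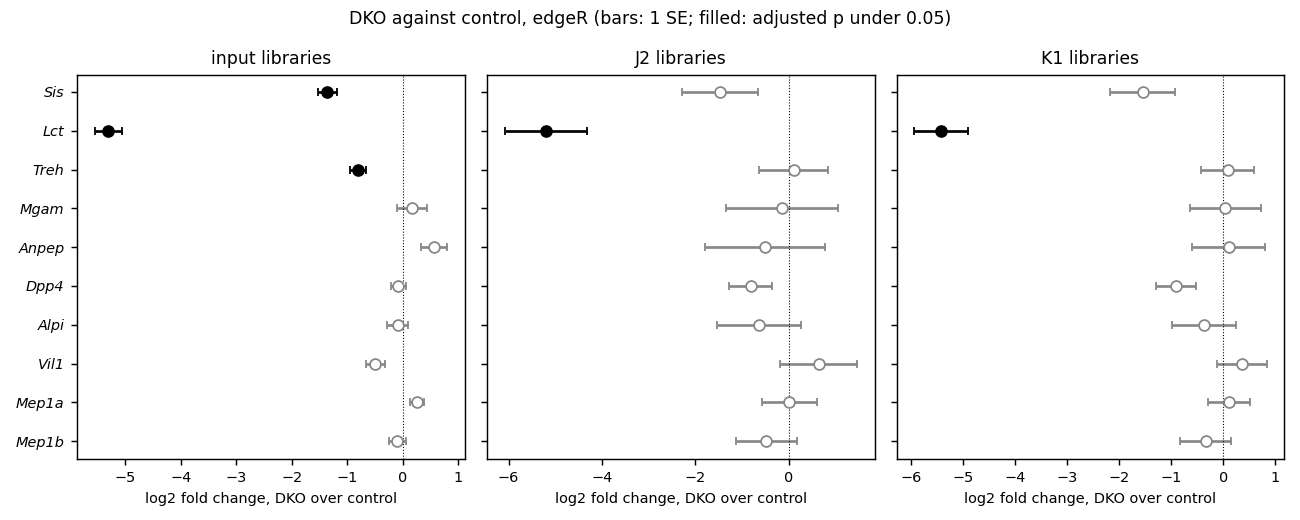
Log2 fold change of DKO over control with 1 SE from edgeR for the 10 members, fitted separately in the 4 input, 4 J2 and 4 K1 libraries; filled points have an adjusted p under 0.05. Lct lies at -5.31, -5.20 and -5.42, Sis and Treh are filled in input only, and the bars of the other members in the pulldowns are wider than in input.

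Each pulldown was then compared with the input of the same genotype, to ask whether double-stranded RNA antibodies enriched these transcripts. In control animals no member was called higher. All 10 members had a log2 fold change below 0 in J2 against input, with a median of -0.68 against -0.07 for all genes, and 0 passed edgeR, where 29.8% of the 15923 genes tested were called (51.1% of these calls higher, and 34.6% without TMM scaling). At an unadjusted p under 0.05, 0 passed, and DESeq2 called 1, where it called 33.9% of all genes. The fit shares its spread with the DKO libraries: without DKO animal 1, and likewise without DKO animal 2, 8 members were called in J2 against input of control animals, all lower and all but Mgam and Anpep. Of all genes, 59.9% and 60.5% were called in those 2 fits, 34% and 30.4% lower. The values were close between the 2 control animals: Sis was at -1.43 and -1.60 in the 2 control animals as pulldown minus input (log2 CPM), Lct at -1.02 and -1.01, and Anpep at -0.05 and 0.03.

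In K1 against input of control animals, 0 members passed, where 39.8% of 15908 genes were called (49.6% of these higher, and 35.9% without TMM scaling). At an unadjusted p under 0.05, 1 passed, and DESeq2 called 2, where it called 36.8% of all genes. With the animal as a block, which ties each pulldown to the input of the same mouse, 3 passed, Sis, Lct and Dpp4, all lower, where 45.8% of all genes did. Without DKO animal 1, and likewise without DKO animal 2, 6 passed, all lower: these 3 and Anpep, Mep1a and Mep1b. Of all genes, 54.8% and 56% passed in those 2 fits. Vil1 was the exception in direction: it was above input in both controls, by 0.22 and 0.50, whereas the others ranged from -1.19 to 0.05. Without the block and with all animals its log2 fold change was 0.29 (SE 0.379, adjusted p 0.581).

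In DKO animals, Dpp4 was lower in J2 than in input, by 1.06 and 1.73 in animals 1 and 2 (log2 CPM). It was the 1 member called, against 25.7% of genes, 13.4% lower (47.6% of the calls higher, and 21.1% without TMM scaling), with a log2 fold change of -1.32 (SE 0.376, adjusted p 0.0353). With the animal as a block 0 members passed, where 21.3% of all genes did, and DESeq2 called 2, where it called 29.4%. Without DKO animal 1, 9 were called, where 46% of all genes were, and without DKO animal 2, 5, where 42.1% were, with Dpp4 lower in both. Without control animal 1 or control animal 2, 0 were called, where 1.98% and 2.44% of all genes were. In K1 against input of DKO animals, 2 members passed, where 35.6% of genes were called, 21% lower (41.1% of the calls higher, and 22.3% without TMM scaling). Dpp4 fell by 1.71 (SE 0.359, adjusted p 0.00565) and Lct by 1.23 (SE 0.402, adjusted p 0.0370). With the animal as a block, where 39.8% of all genes passed, 8 members did, all but Treh and Mgam, and Vil1 was the member among them that was higher. The Vil1 values were 1.36 and 0.68 above input in DKO animals 1 and 2, with a log2 fold change of 1.01 (SE 0.383, adjusted p 0.0621) without the block. Without DKO animal 1, 8 were called, where 29.4% of all genes were, and without DKO animal 2, 5, where 36.4% were. Without control animal 1 or control animal 2 the 1 call was Dpp4, where 17.8% and 18.4% of all genes were called.

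The 2 DKO animals differed more from each other than the 2 controls did. The median over the 10 members of pulldown minus input was -0.73 and -0.66 in the controls for J2, -0.40 in DKO animal 1 and -2.20 in DKO animal 2. For K1 it was -0.75 and -0.32 in the controls, -0.42 in DKO animal 1 and -1.80 in DKO animal 2. The median over all 16582 genes in the same pairs stayed between -0.11 and 0.05. The members of DKO animal 2 spanned -2.94 (Sis) to -0.16 (Vil1) in J2 and -2.67 (Sis) to 0.68 (Vil1) in K1. Sis was therefore the lowest and Vil1 the highest member in that animal with both antibodies.

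**Figure D4:**
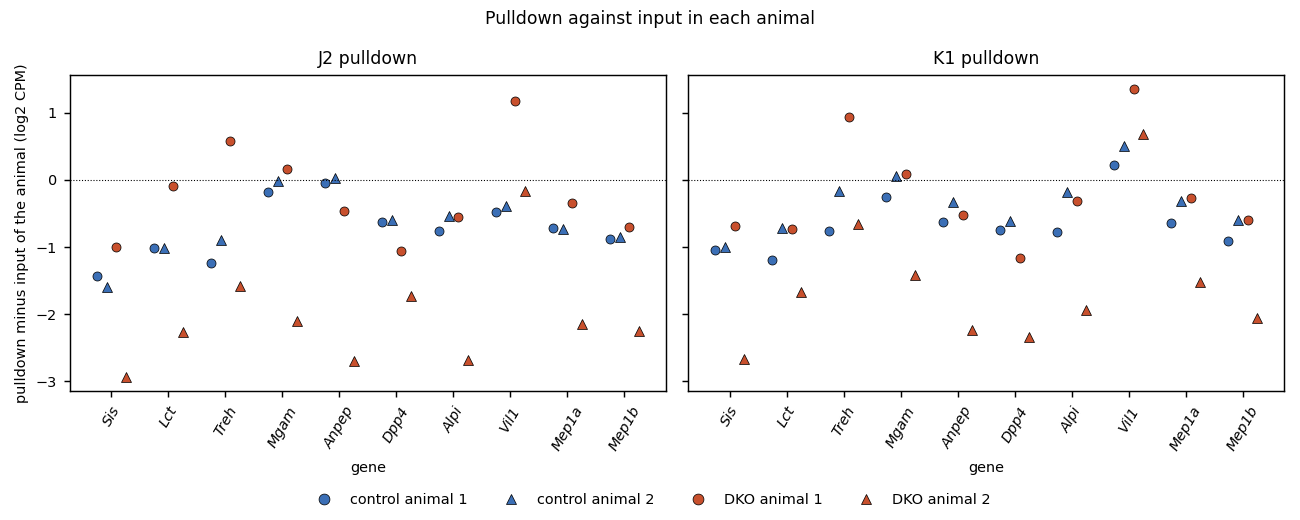
Pulldown minus input of the same animal (log2 CPM) for the 10 members, J2 on the left and K1 on the right, with circles for animal 1 and triangles for animal 2 of each genotype. Control values lie between -1.60 and 0.50, DKO animal 2 is the lowest point for every gene but Vil1 and, with K1, Treh, and both DKO animals lie above both controls for Vil1.

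Whether enrichment differed between genotypes was tested as the interaction of library kind and genotype. For J2, 0 of the 10 members passed edgeR, where 2.71% of genes were called. For K1, 0 passed, where 5.47% were called. Of those calls 28.5% and 25.1% were higher, against 10.5% and 13.2% without TMM scaling and, for K1, 39.2% with DESeq2's size factors. The unadjusted p was under 0.05 for 0 members with either antibody. DESeq2 called 0, where it called 13.5% of all genes for J2 and 8.94% for K1. Of the members, Dpp4 and Vil1 had both DKO values beyond both control values with both antibodies, a layout that was not counted over all genes. With 2 against 2 animals it gives an exact permutation p of 0.333 at best, so it does not mark these 2 genes out. Dpp4 was lower in DKO by 0.72 for J2 (SE 0.523, adjusted p 0.409) and by 0.95 for K1 (SE 0.494, adjusted p 0.280). Vil1 was higher by 1.18 for J2 (SE 0.860, adjusted p 0.411) and by 0.73 for K1 (SE 0.537, adjusted p 0.457). The Lct values overlapped between genotypes, with a difference of 0.16 for J2 (SE 0.886) and -0.25 for K1 (SE 0.549). The counts moved with the DKO animal that was kept: without DKO animal 1, 8 members were called for J2 and 7 for K1, all lower, where 41.3% and 22.7% of all genes were called. Without DKO animal 2, 2 and 1 were called, where 27.6% and 10.1% of all genes were called.

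Other genes of the brush border were read from 3 lists: 16 further hydrolases, 16 microvillus structure genes and 16 transcription factors of enterocytes. Of the hydrolases, 15 were tested in input, 1 was called higher and 8 lower, with a median log2 fold change of -0.77, where 35.9% of all genes were called, 17.1% lower. The 3 largest were Enpp7, an alkaline sphingomyelinase (-2.62, SE 0.180, adjusted p 1.33e-04), Akp3, another intestinal alkaline phosphatase (-1.70, SE 0.282, adjusted p 0.00351), and Asah2, a neutral ceramidase (-1.61, SE 0.137, adjusted p 2.62e-04). Akp3 thus passed and Alpi did not; the difference between them was not tested. The hydrolase that rose was Tmprss15, enteropeptidase, the activator of trypsinogen (0.61, SE 0.162, adjusted p 0.0231).

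Of 16 microvillus structure genes, all tested in input, 2 were called higher and 2 lower, with a median of -0.05, a share below that of all genes (35.9%). Pls1, an actin-bundling fimbrin of the microvillus, fell by 1.19 (SE 0.159, adjusted p 0.00142), and Pdzk1, a scaffold for membrane transporters, fell by 0.81 (SE 0.146, adjusted p 0.00492). Tmigd1, an adhesion protein of the brush border, rose by 3.25 (SE 0.396, adjusted p 9.69e-04). Vil1, which bundles actin as Pls1 does, did not pass, and the difference between them was not tested.

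Of the 16 transcription factors, 3 were called higher and 4 lower in input, with a median of -0.05, a share near that of all genes. Hnf4g fell by 0.71 (SE 0.127, adjusted p 0.00496), Klf5 by 0.68 (SE 0.130, adjusted p 0.00613) and Maf by 0.62 (SE 0.149, adjusted p 0.0155). Cdx2, whose family's motif was in the Sis and Lct windows, had a log2 fold change of -0.33 and did not pass (adjusted p 0.0616), and Hnf4a and Gata4 stood at 0.08 and 0.04. In the pulldowns, where 12.2% of all genes were called in J2 and 27.1% in K1, hydrolases called between genotypes were 0 of 15 in J2 and 3 in K1, all lower: Enpp7 (-3.11), Asah2 (-2.93) and Mme, neprilysin (-2.45). Transcription factors were called lower for 1 gene in J2, Gata5 (-1.56, adjusted p 0.0434), and for 5 in K1, led by Hnf4g (-1.72), Cdx1 (-1.36) and Cdx2 (-1.21). In the K1 difference of enrichment, where 5.47% of all genes were called, Smad4 (-1.62, adjusted p 0.0323) and Cdx1 (-1.35, adjusted p 0.0435) passed among the transcription factors. No member and no gene of the other 2 lists passed there.

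**Figure D5:**
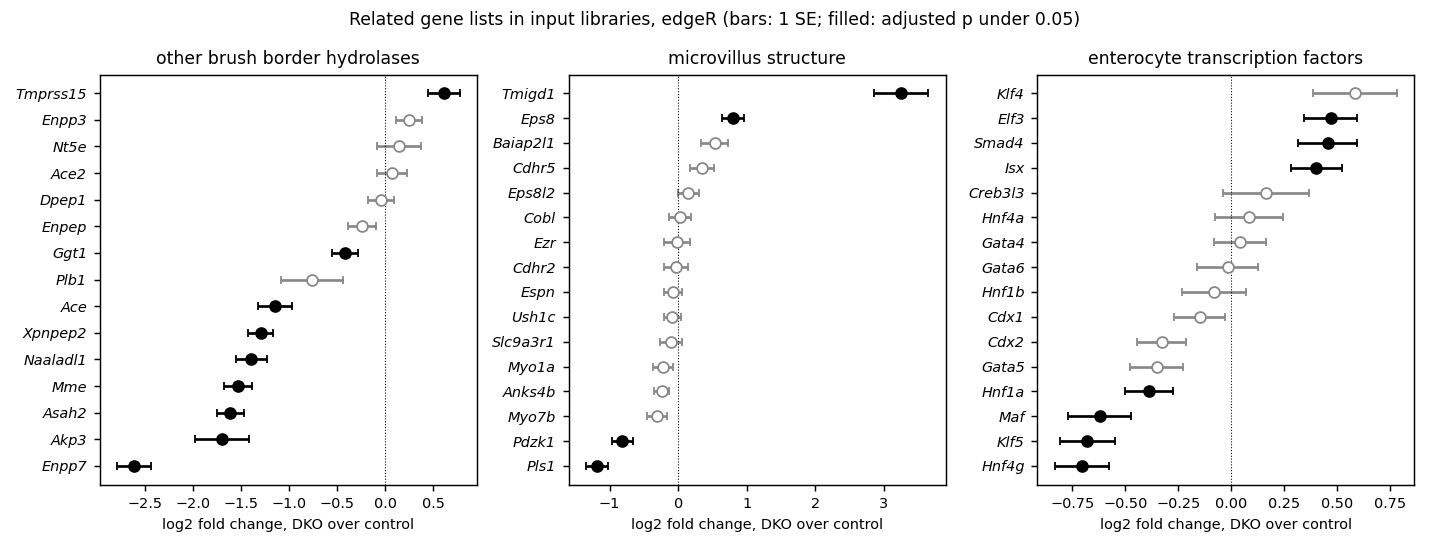
Log2 fold change of DKO over control in input libraries with 1 SE from edgeR, for further brush border hydrolases, microvillus structure genes and enterocyte transcription factors; filled points have an adjusted p under 0.05. Hydrolases reach -2.62 (Enpp7), while most structure genes and transcription factors lie within 1 of 0.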

How the data were processed

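Whole-number counts per gene were deposited by the authors, 1 table per library, and per the labels they were counted without strand. Per the submitters' processing notes, which give no roles or order, the builds were mm10 and GRCm38.p4 and the tools included STAR 2.7.10b, UMI-tools 1.1.4, HTSeq 2.0.2, DESeq2 1.40.1 and edgeR 3.42.2; the annotation release is not given in the sources used here. Per the labels' protocols, libraries used random hexamers, rRNA depletion, molecular identifiers and read pairs of 150 bp. Whether identifiers were collapsed is not given, so counting error may understate the error of each value. Rows that name no gene held 18.7% to 61.2% of listed reads and were left out.

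Gene names and coordinates came from GENCODE M21 (GRCm38): 48144 of 48526 identifiers matched without version. The main test was the quasi-likelihood test of edgeR 4.0.16 (R 4.3.3) with TMM scaling and genes kept by filterByExpr (minimum count 10). P-values were adjusted by Benjamini-Hochberg over all genes tested, with a threshold of 0.05. DKO was compared with control in 4 libraries of a kind, and enrichment in 8 libraries, those of the antibody and the inputs. CPM were scaled by TMM over all 12 libraries, with a prior count of 2 for log2 CPM. DESeq2 1.42.0 was an alternative, with other scalings, no filter, thinning to 2220291 counts, a fit of all libraries, a block and leaving out each animal. The script was tested on simulated data. Summed levels were compared by exact permutation. No spike-in is described, so scaling removes differences in total RNA pulled down.

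Same-numbered libraries of a genotype come from the same mouse per the labels, and their deviations from group means correlated (r 0.208 to 0.494 over 16582 genes), so the animal pairs pulldown with input. Replicates differed beyond sampling noise (chi-square per degree of freedom 9.78 or more). The members and lists were chosen with earlier results of these data known. Besides all members, the text names up to 3 genes per list and comparison, by size of log2 fold change, among those past the threshold with 50 or more counts on average and groups that do not overlap. Tmprss15, Hnf4a, Gata4 and Cdx2 in input were named after their values were seen.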

Additional observations from a re-analysis of the deposited data

Results flagged for a closer look

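In the difference of K1 enrichment between genotypes, 2 of the 16 enterocyte transcription factors were called by the interaction test in edgeR, where 5.47% of all genes were. Smad4, a mediator of TGF-beta and BMP signals, had a difference of -1.62 (SE 0.350, adjusted p 0.0323), and Cdx1 one of -1.35 (SE 0.330, adjusted p 0.0435). For both, the pulldown minus input values of both DKO animals lay below those of both controls. The calls depended on the setting: Smad4 passed in 7 of 11 alternatives and Cdx1 in 6, with the same sign in all 11.

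Reads that aligned to several places are listed in the count tables but enter no gene. They averaged 22.7% of the listed reads in J2 DKO and 36.3% in K1 DKO, above every control library. Their part in the values of the brush border genes was not tested.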

How the results depend on the processing

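Lct kept its direction in each DKO comparison under all 11 alternatives, with log2 fold changes from -5.54 to -5.06 in input, -6.45 to -4.48 in J2 and -5.84 to -4.93 in K1. Percents in brackets below give the share of all genes called in the same setting. Members called between genotypes in input numbered 3 (35.9%). They numbered 5 without TMM (33.6%), without the filter (23.6%) and with DESeq2 (27.5%), 4 when thinned (30.8%), and 1 in the fit of 12 libraries (10.1%). With an animal left out, the log2 fold change ranged from -1.47 to -1.26 for Sis and from -0.93 to -0.70 for Treh. The median of all genes moved to -0.13 without TMM. In J2 the members called numbered 1 in the main test (12.2%) and in every alternative that kept all animals (10.3% to 36.1%). In K1 they numbered 1 (27.1%), 3 without TMM (32.5%), 3 without the filter (20.4%), 2 with DESeq2 (25.1%) and 2 with the replicate block (26.2%). In both pulldowns, leaving out a DKO animal moved these counts, as given above. Leaving out a control animal moved the count in J2 but not in K1. The block on replicate number between genotypes rests on numbers alone, since same-numbered animals correlated by 0.03, -0.09 and -0.10. It left 3 members in input (38%) and 1 in J2 (17.2%).

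For J2 against input, controls had 0 members (29.8%), 6 without TMM (27%), 1 without the filter (20.1%) and 1 with DESeq2 (33.9%). DKO had 1 (25.7%), 6 without TMM (24%) and 5 without the filter (18.8%). DKO had 2 with DESeq2 (29.4%) and 0 with the animal as replicate block (21.3%). Without an animal DKO had 0 to 9, and the share of all genes called moved as well, as given above. For K1 against input, controls had 0 (39.8%), 1 with DESeq2 size factors (39.1%), 4 without TMM (37.5%) and 4 without the filter (26%). They had 2 with DESeq2 (36.8%), 2 when thinned (26.4%) and 3 with the block (45.8%). DKO had 2 (35.6%), 7 without TMM (39.2%), 8 without the filter (22.2%) and 5 with DESeq2 (34.1%). DKO had 1 in the fit of 12 libraries (23.3%), 4 when thinned (30.9%) and 8 with the block (39.8%). The differences of enrichment had 0 each (2.71% for J2 and 5.47% for K1). Under the alternatives that kept all animals they also had 0, where 0% to 13.5% (J2) and 0.356% to 12% (K1) of all genes were called. Leaving out a DKO animal moved the counts against input and of these differences, as given above. Leaving out a control animal added no member to any of them, and fewer of all genes were called in those fits.

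Signs turned for input members near 0 when an animal was left out: Dpp4 ranged from -0.17 to 0.00, Mgam from -0.21 to 0.46, Alpi from -0.27 to 0.078 and Mep1b from -0.20 to 0.0047. The log2 ratio of the summed levels, -0.12 in input, -0.43 in J2 and -0.30 in K1, ranged from -0.39 (without DKO animal 1) to 0.087 (without DKO animal 2) in input, from -2.16 to 0.34 in J2 and from -1.48 to 0.35 in K1 for the same animals left out; these alternatives were chosen after seeing the data. The cause of these shifts was not tested. Depth limits the DKO pulldowns most, where Lct had 46 to 220 counts.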
